A study of Caenorhabditis elegans with 12 samples.

Results

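C-type lectin genes, named clec in Caenorhabditis elegans, encode proteins with a C-type lectin-like domain, a fold that in some family members binds sugars. The genes described here are those that the authors' edgeR result sheets name clec followed by a number, joined to the count table by sequence name. There were 146 of them among 44968 features in the table and 18028 genes tested. All 146 passed the filter on low counts, but the authors' sheets had already kept only genes above a minimum level, so a pass carries no weight. RefSeq names another 118 clec genes in the same table. Of these, 37 passed the filter, and 3 of them passed the test of salt with food and none passed any other test below. Shares of members below leave these 37 genes out. Shares of all genes are over the 18028 genes tested, more than the 16026 in the authors' sheets, so part of a difference between the shares can come from this choice. Of the 146 genes, 137 are annotated as protein coding and 9 as pseudogenes. Chromosome V holds 50 of them, IV 41, II 25, I 18, III 9 and X 3. The coding length ranged from 459 to 10542 bases, with a median of 1101.

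The worm family is large and varied. Many of its members are predicted to be secreted, many are expressed in the intestine, and sets of them are raised in worms that feed on pathogenic bacteria, which is why they are often used as readouts of innate immunity. The p38 MAP kinase PMK-1 and the intestinal GATA factor ELT-2 are known to act upstream of some of them. OP50 is the Escherichia coli strain on which worms are usually grown. Sodium chloride at high concentration is an osmotic stress that worms meet with changes in gene expression.

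All libraries came from whole first-stage larvae (L1) of the N2 wild-type strain held for 24 h at 25 °C. In 4 groups of 3 biological replicates, A, B and C, larvae were kept at 500 mM NaCl without OP50 (unfed high-salt), at 500 mM NaCl with OP50 (fed high-salt), at 100 mM NaCl without OP50 (unfed low-salt) or at 100 mM NaCl with OP50 (fed low-salt). The comparisons ask what high salt does with and without food, what lack of food does at each salt level, and how high salt with food, labelled here osmotic stress, differs from lack of food at low salt, starvation. What stage each group had reached after 24 h was not tested. A difference in growth between groups cannot be told apart from these effects. Polyadenylated RNA was sequenced after a non-directional library preparation, so reads of the 29 members with an exon over another annotated gene cannot be told apart from that gene's reads. The 29 include clec-3, clec-60, clec-82, clec-83, clec-85, clec-86, clec-221, clec-264 and clec-266.

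Between 5613260 and 76542711 reads per library fell on genes. Ribosomal RNA genes took 9.13%, 39.9% and 81.8% of them in libraries A, B and C of fed high-salt larvae. Unfed high-salt A stood apart, with 38.6% of its reads aligned and 17.1% of the aligned reads outside genes, against 70.1% to 91.3% and 1.87% to 5.90% in the other 11 libraries. Markers of intestine, epidermis, muscle, pharynx and neurons were present. In whole larvae, fewer cells of a type and less RNA per cell cannot be told apart. Levels below are CPM, reads per 1000000 of the scaled library, and per-library values are given in the order A, B, C. A gene is said to have passed a test, to rise or to fall where edgeR's quasi-likelihood test, with Benjamini-Hochberg adjustment over all 18028 genes, gave an adjusted p under 0.05.

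Together the 146 genes took far fewer reads at high salt. Their summed level was 1112, 747 and 1000 CPM in unfed high-salt larvae, and 893, 838 and 761 CPM in fed high-salt larvae. It was 2347, 2263 and 3758 CPM in unfed low-salt larvae, and 3357, 3164 and 4371 CPM in fed low-salt larvae. Each of the 6 high-salt libraries lay below each of the 6 low-salt libraries. The sums averaged 953 ± 187, 830 ± 66.1, 2789 ± 840 and 3631 ± 649 CPM in unfed high-salt, fed high-salt, unfed low-salt and fed low-salt larvae (SD, n = 3 each). A single gene, clec-63, supplied 14.8% to 27.0% of the sum in high-salt libraries and 27.5% to 44.3% in low-salt libraries. Without clec-63 the sum was still 589 to 948 CPM at high salt and 1391 to 2437 CPM at low salt.

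**Figure D1:**
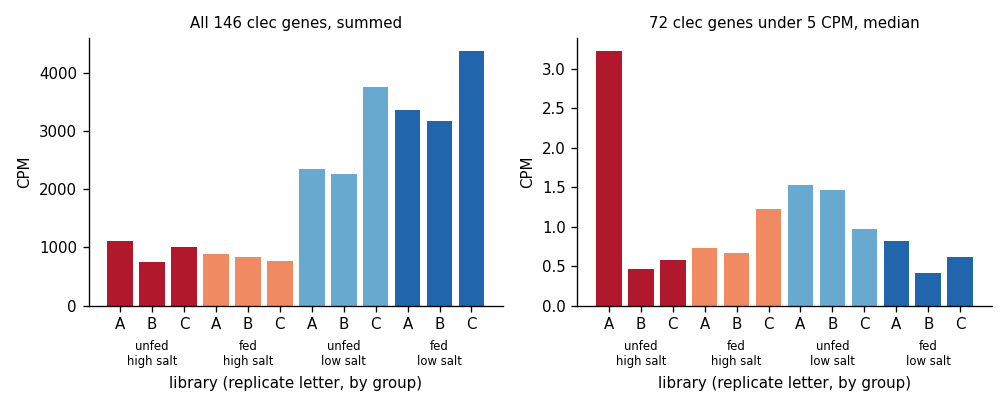
Left, the summed level of the 146 clec genes in CPM (vertical axis) in each of the 12 libraries (bars, coloured by group); right, the median CPM of the 72 clec genes under 5 CPM in every group. The high-salt sums end at 1112 CPM and the low-salt sums begin at 2263 CPM, while on the right unfed high-salt A stands alone at 3.22 CPM.

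Levels of different genes were compared per kilobase of coding length. In unfed high-salt larvae clec-146 led with 205 CPM per kb, against 145 for clec-63, 44.1 for clec-266, 40.0 for clec-50 and 36.1 for clec-1. In fed high-salt larvae clec-146 had 178 CPM per kb, clec-63 163, clec-266 51.8, clec-17 38.6 and clec-65 35.1 CPM per kb. At low salt another gene came first. In unfed low-salt larvae clec-63 led with 869 CPM per kb, ahead of clec-1 with 378, clec-47 with 157, clec-50 with 93.1 and clec-83 with 79.0 CPM per kb. In fed low-salt larvae clec-63 had 1183 CPM per kb, followed by clec-50 with 298, clec-1 with 239, clec-47 with 149 and clec-85 with 116 CPM per kb. The median gene had 3.42 CPM per kb in unfed low-salt and 2.75 CPM per kb in fed low-salt larvae, so most of the family lay far below these leaders.

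The members were split over the groups by where each had its highest mean. The highest mean fell in unfed high-salt larvae for 45 genes (30.8% of members, against 30.8% of all genes tested), in fed high-salt larvae for 9 (6.16% against 19.4%), in unfed low-salt larvae for 50 (34.2% against 19.3%) and in fed low-salt larvae for 42 (28.8% against 30.6%). Many low members peaked in a single library. Unfed high-salt A held the highest value for 48 of the 72 members that stayed under 5 CPM in every group, and their median was 3.22 CPM there against 0.418 to 1.52 CPM in the other 11 libraries. It also held the highest value for 79 of the 118 other clec genes. With unfed high-salt A and fed high-salt C left out, the highest mean fell in unfed high-salt larvae for 10 members (6.85%, against 22.1% of all genes), in fed high-salt larvae for 19 (13.01% against 22.4%), in unfed low-salt larvae for 71 (48.6% against 25.0%) and in fed low-salt larvae for 46 (31.5% against 30.5%). The part that read quality in unfed high-salt A plays in these counts was not tested.

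Among the 74 members that reached 5 CPM in some group, the split leaned to low salt. The highest mean fell in unfed high-salt larvae for 11 (14.9%, against 20.0% of all genes at this level), in fed high-salt larvae for 5 (6.76% against 19.8%), in unfed low-salt larvae for 25 (33.8% against 17.98%) and in fed low-salt larvae for 33 (44.6% against 42.2%). A stricter count asked that all 3 libraries of a group lie above the other 9. This held for clec-90 in unfed high-salt larvae, 1 of 146 members against 1.459% of all genes, and for no member in fed high-salt larvae against 1.120% of all genes. In unfed low-salt larvae it held for 16 members, which is 10.96% against 2.657% of all genes, and in fed low-salt larvae for 17, which is 11.6% against 12.78%. The 16 include clec-7, clec-13, clec-15, clec-61 and clec-76, and the 17 include clec-50, clec-57, clec-85, clec-186, clec-187, clec-209 and clec-265.

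**Figure D2:**
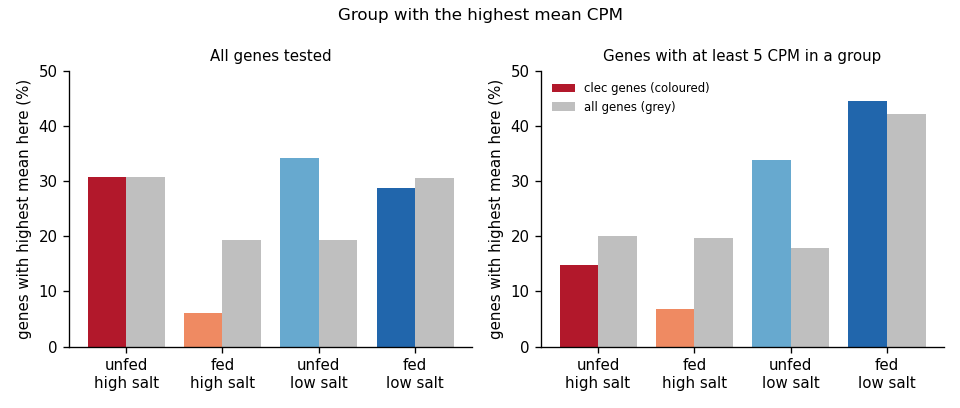
Percent of genes (vertical axis) whose highest mean CPM fell in each group, for clec genes (coloured bars) and for all genes (grey bars), over all genes tested on the left and over genes with at least 5 CPM in a group on the right. The clec bar exceeds the grey bar most in unfed low-salt larvae (34.2% against 19.3% on the left) and falls short of it most in fed high-salt larvae (6.16% against 19.4%).

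**Figure D3:**
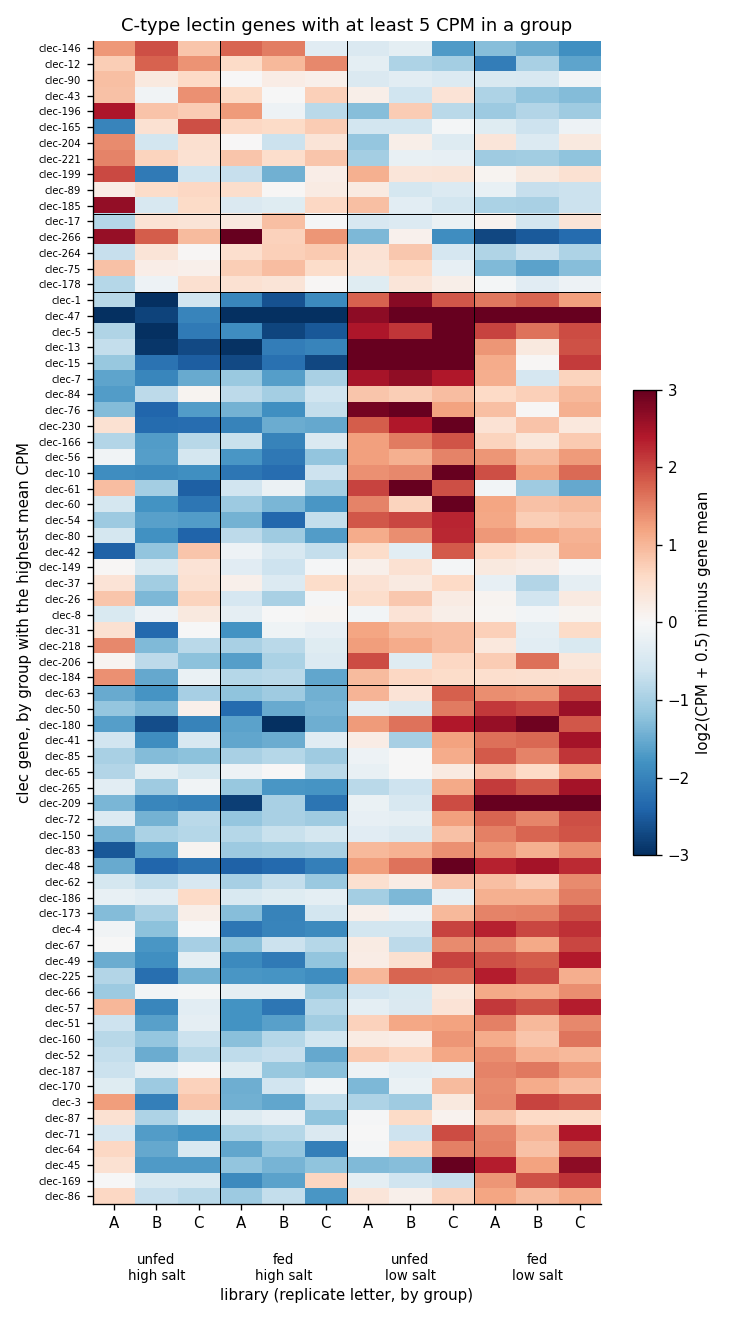
The 74 clec genes with at least 5 CPM in a group (1 per line) in the 12 libraries (columns), coloured by log2(CPM + 0.5) minus the gene's mean over the libraries, with values beyond 3 drawn in the end colours. Black lines part the genes by the group with the highest mean: 11 for unfed high-salt, 5 for fed high-salt, 25 for unfed low-salt and 33 for fed low-salt larvae.

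High salt with food lowered many more clec genes than it raised. In fed high-salt larvae against fed low-salt larvae, 64 of 146 members passed the test (43.8%, against 38.3% of all genes), 52 lower (35.6% of members, against 22.1% of all genes) and 12 higher (8.22%, against 16.1%). The median log2 fold change was -0.57 over the members and 0.12 over all genes. The 3 and 3 libraries did not overlap for 89 members, where 62.5% of all genes did not overlap.

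The deepest fall was that of clec-47, which the authors' deposited annotation gives as raised by ionizing radiation and bacterial infection. It had 0.0538, 0.364 and 0.203 CPM in fed high-salt larvae, against 64.6, 74.3 and 75.8 CPM in fed low-salt larvae. The gene was close to silent in each fed high-salt library, with a log2 fold change of -8.43 ± 0.68 (SE; adjusted p = 1.25e-06), or 345 times lower. The gene clec-63, the most abundant per kb at low salt, had 205, 226 and 172 CPM in fed high-salt larvae, against 1236, 1206 and 1935 CPM in fed low-salt larvae (log2 fold change -2.86 ± 0.37, adjusted p = 3.02e-05). For clec-50, the level was 11.6, 20.5 and 22.3 CPM in fed high-salt larvae, against 260, 241 and 359 CPM in fed low-salt larvae (log2 fold change -3.99 ± 0.57, adjusted p = 9.88e-05). The libraries of the 2 groups lay far apart for both genes.

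Next to clec-47, the deepest falls among members at 5 CPM or more were in clec-209, clec-45 and clec-15. For clec-209 the values were 0.484, 3.03 and 1.02 CPM in fed high-salt larvae, against 60.4, 59.9 and 100 CPM in fed low-salt larvae (log2 fold change -5.54 ± 0.78, adjusted p = 0.000143). For clec-15 they were 0.215, 0.485 and 0.203 CPM in fed high-salt larvae, against 9.69, 4.30 and 19.5 CPM in fed low-salt larvae (log2 fold change -5.11 ± 0.66, adjusted p = 3.4e-05). The gene clec-45 had 0.215, 0.121 and 0.203 CPM in fed high-salt larvae, against 7.86, 3.29 and 9.97 CPM in fed low-salt larvae. Its fold change of -5.29 ± 1.87 on the log2 scale was the least certain of the set (adjusted p = 0.0392) and missed the threshold when any 1 of these 6 libraries was left out. The well-expressed clec-1, with a coding length of 519 bases, had 10.6, 6.48 and 11 CPM in fed high-salt larvae, against 127, 143 and 101 CPM in fed low-salt larvae (log2 fold change -3.74 ± 0.52).

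Few members went the other way, and 7 of the 12 that rose reached 5 CPM. Values follow for the 4 of these with the largest log2 fold change. The annotation lists clec-266 as a paralog of clec-87, which encodes a proteoglycan that carries chondroitin. It had 80.9, 13.5 and 21.1 CPM in fed high-salt larvae, against 0.792, 1.02 and 1.24 CPM in fed low-salt larvae, a log2 fold change of 5.20 ± 0.80 (adjusted p = 0.000272) or 36.8-fold. Fed high-salt A lay well above the other 2, but the lowest of the 3 was still over the highest fed low-salt library. The gene clec-146 had 144, 124 and 33.9 CPM in fed high-salt larvae, against 17.4, 14.9 and 11.6 CPM in fed low-salt larvae (log2 fold change 2.79 ± 0.49, adjusted p = 0.000445). For clec-12 the values were 9.57, 12.7 and 17.7 CPM in fed high-salt larvae, against 1.1, 2.93 and 1.76 CPM in fed low-salt larvae (log2 fold change 2.77 ± 0.41). The fourth, clec-75, had 7.47, 8.60 and 6.5 CPM in fed high-salt larvae, against 1.40, 1.08 and 1.48 CPM in fed low-salt larvae (log2 fold change 2.50 ± 0.38, adjusted p = 0.000124). Groups did not overlap for any of the 4. Among the paralogs that the annotation names with clec-266, chosen after their values were seen, clec-87 fell by 1.28 ± 0.39 on the log2 scale (adjusted p = 0.0176), and clec-88 (-1.0), clec-196 (1.84) and clec-91 (0.31) did not pass the test.

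Another scaling of the libraries, by upper quartiles, gave 20 higher members (13.7%, against 26.3% of all genes) and 45 lower (30.8%, against 15.0% of all genes). Under it more genes overall were higher than lower with salt, the reverse of the balance above, while more members were lower under both scalings. It moved the median over all genes to 0.55, with that of the members at -0.17. Without unfed high-salt A and fed high-salt C, 57 of the 145 members then tested were lower (39.3%, against 23.8% of all genes) and 17 higher (11.7%, against 18.03%), and the median was -1.04 over the members and 0.07 over all genes.

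High salt without food gave a like picture with fewer calls. In unfed high-salt larvae against unfed low-salt larvae, 36 members passed the test (24.7%, against 17.9% of all genes), 31 lower (21.2% against 11.2%) and 5 higher (3.42% against 6.72%). The median log2 fold change was -0.29 over members and 0.08 over all genes. Without unfed high-salt A and fed high-salt C it was -1.40 over members and -0.09 over all genes. The libraries did not overlap for 48 members, where the share over all genes was 29.1%. Without unfed high-salt A, 53 members were lower (36.3%, against 13.7% of all genes) and 7 higher (4.79%, against 9.19%). Without unfed low-salt A, clec-266 (adjusted p = 0.0526) and clec-221 (0.0711) missed the threshold.

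The leading members were largely those seen with food. The gene clec-47 had 0, 0.641 and 1.5 CPM in unfed high-salt larvae, against 50.4, 90.6 and 85 CPM in unfed low-salt larvae (log2 fold change -6.55 ± 0.57, adjusted p = 4.19e-06). The neighbours clec-15 and clec-13 moved together: clec-15 had 1.61, 0.504 and 0.346 CPM in unfed high-salt larvae, against 47.2, 62.7 and 40.7 CPM in unfed low-salt larvae (log2 fold change -6.13 ± 0.61, adjusted p = 7.86e-06). For clec-13 the values were 2.65, 0.183 and 0.289 CPM in unfed high-salt larvae, against 46.0, 64.3 and 42.9 CPM in unfed low-salt larvae (log2 fold change -5.94 ± 0.81). All 3 genes were at or below 2.65 CPM in every unfed high-salt library. In unfed high-salt larvae clec-76 had 1.73, 0.550 and 1.21 CPM, against 39.5, 52.1 and 12.1 CPM in unfed low-salt larvae (log2 fold change -4.98 ± 0.59, adjusted p = 3.22e-05).

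The rises were again led by clec-266, with 52.3, 29.9 and 16.3 CPM in unfed high-salt larvae, against 2.89, 8.92 and 1.88 CPM in unfed low-salt larvae (log2 fold change 2.83 ± 0.71, adjusted p = 0.0135). For clec-12 the levels were 10.7, 22.5 and 16.6 CPM in unfed high-salt larvae, against 4.94, 3.02 and 2.83 CPM in unfed low-salt larvae (log2 fold change 2.21 ± 0.40). For clec-146 they were 107, 165 and 76.9 CPM in unfed high-salt larvae, against 31.4, 34.7 and 12.9 CPM in unfed low-salt larvae (log2 fold change 2.14 ± 0.48). These 3 sat above the low-salt libraries in every unfed high-salt library. The gene clec-221 rose by 1.59 ± 0.43 on the log2 scale (adjusted p = 0.017), at 8.87, 4.81 and 4.10 CPM in unfed high-salt larvae against 1.15, 2.36 and 2.33 CPM in unfed low-salt larvae. The fifth to rise, clec-90, is named after its values were seen: it had 19, 12.2 and 15.2 CPM in unfed high-salt larvae, against 7.23, 7.83 and 7.37 CPM in unfed low-salt larvae (log2 fold change 1.04 ± 0.26, adjusted p = 0.00969).

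Set side by side, 30 members fell with salt in both food states (20.5%, against 9.11% of all genes) and 4 rose (2.74%, against 4.73%), and none passed in opposite directions. The 4 were clec-12, clec-146, clec-221 and clec-266. Another 22 members were lower and 8 higher at a passing level with food and not without it, 1 was lower and 1 higher without food and not with it, and 80 passed in neither comparison. Passing in 1 food state and not in the other does not show a difference, which the interaction below tests.

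**Figure D4:**
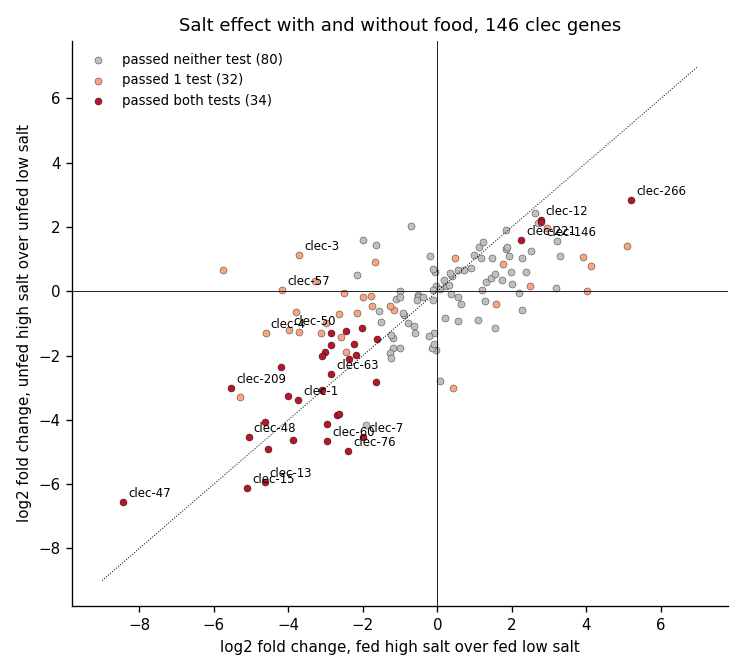
Log2 fold change with salt in fed larvae (horizontal axis, fed high-salt over fed low-salt) and in unfed larvae (vertical axis, unfed high-salt over unfed low-salt) for the 146 clec genes (points), coloured by whether both tests, 1 test or neither was passed. Of the points, 34 passed both, 32 passed 1 and 80 neither; clec-47 lies at the lower left (-8.43 and -6.55) and clec-266 at the upper right (5.20 and 2.83), and the dotted line marks equal change.

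Lack of food at low salt moved fewer members, and in both directions. In unfed low-salt larvae against fed low-salt larvae, 17 members passed the test (11.6%, against 7.68% of all genes), 8 higher (5.48% against 3.57%) and 9 lower (6.16% against 4.11%). The median log2 fold change was 0.65 over the members and 0.15 over all genes. The libraries did not overlap for 67 members, where the share over all genes was 41.4%.

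A first set was higher without food. It was led by clec-61, which with its neighbour clec-60 is known to be raised in worms on Staphylococcus aureus or Microbacterium nematophilum. In unfed low-salt larvae clec-61 had 11.82, 24.4 and 11.08 CPM, against 2.38, 0.956 and 0.555 CPM in fed low-salt larvae (log2 fold change 3.67 ± 0.93, adjusted p = 0.0331). For clec-15 the unfed low-salt values given above, 47.2, 62.7 and 40.7 CPM, stood against 9.69, 4.30 and 19.5 CPM in fed low-salt larvae (log2 fold change 2.15 ± 0.47, adjusted p = 0.015). The gene clec-7 had 39.8, 45.3 and 38.1 CPM in unfed low-salt larvae, against 15.1, 4.66 and 11.096 CPM in fed low-salt larvae (log2 fold change 2.0 ± 0.35, adjusted p = 0.00542). Each of the 3 had its lowest unfed low-salt library above its highest fed low-salt library. For clec-76 the levels were 39.5, 52.1 and 12.1 CPM in unfed low-salt larvae, against 9.81, 5.08 and 10.9 CPM in fed low-salt larvae (log2 fold change 2.0 ± 0.49, adjusted p = 0.024), with unfed low-salt C close to the fed libraries. Of the 8 higher members, 4 also fell with salt without food. The neighbour clec-60 had 7.93, 4.33 and 34.3 CPM in unfed low-salt larvae, against 6.34, 5.02 and 5.33 CPM in fed low-salt larvae, and did not pass (log2 fold change 1.48 ± 0.67, adjusted p = 0.173).

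A second set was lower without food, and all 9 of its members were also lower with salt in fed larvae, a comparison that shares the fed low-salt libraries. For clec-209 the values were 5.59, 4.46 and 26.5 CPM in unfed low-salt larvae, against 60.4, 59.9 and 100 CPM in fed low-salt larvae (log2 fold change -2.60 ± 0.65, adjusted p = 0.0316). The gene clec-57 had 4.39, 3.98 and 7.48 CPM in unfed low-salt larvae, against 25.5, 22.2 and 30.2 CPM in fed low-salt larvae (log2 fold change -2.30 ± 0.60, adjusted p = 0.0331). For clec-186 the levels were 8.88, 6.91 and 15.5 CPM in unfed low-salt larvae, against 38.9, 39.3 and 54.5 CPM in fed low-salt larvae (log2 fold change -2.09 ± 0.32, adjusted p = 0.0028). In each of these genes unfed low-salt C was the highest unfed library and yet stayed below all fed libraries. The same held for clec-265, with 9.48, 10.9 and 37.9 CPM in unfed low-salt larvae, against 74.8, 64.0 and 98.9 CPM in fed low-salt larvae (log2 fold change -2.03 ± 0.45, adjusted p = 0.0155). In clec-4, which the annotation gives as raised by pathogens and radiation, the value of 31.9 CPM in unfed low-salt C, against 4.99 and 4.94 CPM in A and B, fell within the fed low-salt range of 31.6 to 38.8 CPM (log2 fold change -1.35 ± 0.59, adjusted p = 0.163).

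This count moved widely when 1 library was left out, as did that over all genes. It was 4 without unfed low-salt B, where 1.12% of all genes passed, and 37 without unfed high-salt A, where 16.3% did. It was 30 without unfed low-salt C (10.97% of all genes), 5 without unfed low-salt A (1.76%), 7 without fed low-salt A (1.89%) and 5 without either fed low-salt B (1.09%) or fed low-salt C (1.54%). Of the 8 genes with values here, clec-7 and clec-186 held in all 12 such fits. The others were lost in 3 to 6 of the 12, with adjusted p up to 0.17 for clec-61, 0.154 for clec-57, 0.142 for clec-76, 0.134 for clec-209, 0.102 for clec-265 and 0.091 for clec-15.

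At high salt, lack of food moved no member past the threshold. In unfed high-salt larvae against fed high-salt larvae, 0 of 146 passed edgeR's test, where 0.0777% of all genes did, and 12 had an unadjusted p under 0.05. The smallest adjusted p was 0.469, and DESeq2 also called 0. The median log2 fold change was 0.49 over the members and 0.15 over all genes; without unfed high-salt A and fed high-salt C it was 0.04 over the members. The libraries of the groups did not overlap for 5 members, where the share over all genes was 10.2%. One of the 5 was clec-4, with 6.91, 2.89 and 7.39 CPM in unfed high-salt larvae, against 1.29, 1.51 and 1.62 CPM in fed high-salt larvae (log2 fold change 1.96 ± 0.69, adjusted p = 0.51). Another was clec-50, with 26.4, 23.1 and 66.1 CPM in unfed high-salt larvae, against 11.6, 20.5 and 22.3 CPM in fed high-salt larvae (log2 fold change 1.1 ± 0.52, adjusted p = 0.628).

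The direct comparison of osmotic stress with starvation set fed high-salt larvae against unfed low-salt larvae. Here 45 members passed the test (30.8%, against 21.5% of all genes), 41 lower (28.1% against 14.5%) and 4 higher (2.74% against 7.04%). The median log2 fold change was -1.02 over the members and -0.08 over all genes. The libraries did not overlap for 70 members, where the share over all genes was 40.0%. The lowest were clec-47 (-8.51 ± 0.68), clec-15 (-7.26 ± 0.68), clec-13 (-6.67 ± 0.86) and clec-5 (-5.39 ± 0.63, log2 fold change ± SE). For clec-5 the levels were 2.26, 0.970 and 1.22 CPM in fed high-salt larvae, against 53.2, 43.9 and 97.5 CPM in unfed low-salt larvae (adjusted p = 4.98e-05). The 4 higher genes, clec-266, clec-146, clec-12 and clec-221, also rose with salt in both food states, in comparisons that share these libraries. Their log2 fold changes here were 3.08 ± 0.71, 1.94 ± 0.48, 1.87 ± 0.40 and 1.38 ± 0.43 in that order, the last with an adjusted p of 0.032. For clec-146 the groups overlapped, since fed high-salt C at 33.9 CPM lay below unfed low-salt B at 34.7 CPM. The call of clec-221 was lost in 8 of the 12 fits without 1 library, with adjusted p up to 0.116.

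**Figure D5:**
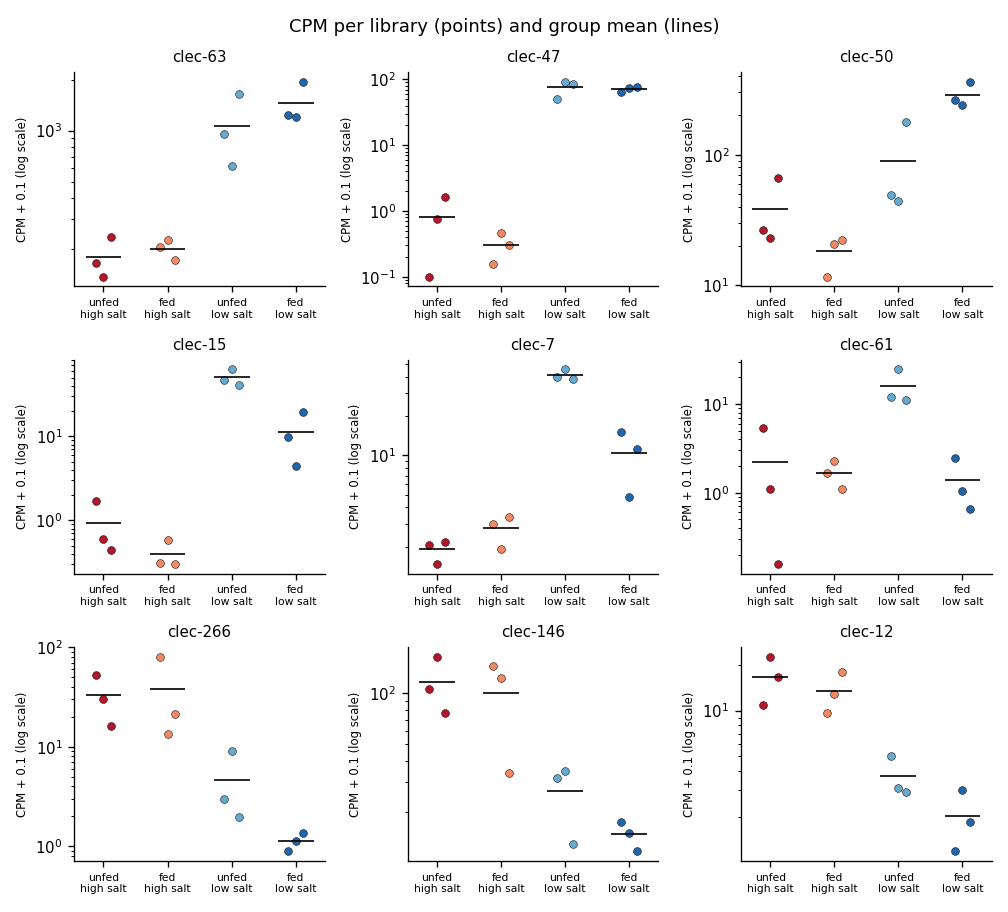
CPM + 0.1 on a log axis (vertical) in each library (points) of the 4 groups, unfed high-salt, fed high-salt, unfed low-salt and fed low-salt, for 9 clec genes, with lines at the group means. In the top row clec-63, clec-47 and clec-50 have lower means at high salt. For clec-50, unfed high-salt C at 66.1 CPM lies above unfed low-salt A and B at 48.7 and 43.9 CPM. In the middle row clec-15, clec-7 and clec-61 are highest in unfed low-salt larvae. In the bottom row clec-266, clec-146 and clec-12 are higher at high salt, apart from the overlap of fed high-salt C with unfed low-salt larvae in clec-146.

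Whether the salt effect differed with food was tested as an interaction, the salt effect without food minus that with food on the log2 scale. It passed for 7 members (4.79%, against 1.997% of all genes), 5 positive (3.42% against 1.564%) and 2 negative (1.37% against 0.4327%). Under upper-quartile scaling 3 were positive and 3 negative, where 1.03% of all genes were positive and 1.08% negative. In all 5 positive ones the gene fell with salt in fed larvae and did not pass in unfed larvae. In log2 fold changes with salt, clec-57 had 0.04 without food and -4.16 with it (interaction 4.20 ± 0.90, adjusted p = 0.0328), and clec-187 had -0.05 without food and -2.50 with it (interaction 2.45 ± 0.49, adjusted p = 0.023). The third, clec-265, had -0.65 without food and -3.79 with it (interaction 3.15 ± 0.64, adjusted p = 0.0252). The neighbour of clec-187, clec-186, had 0.90 without food and -1.66 with it (interaction 2.56 ± 0.45, adjusted p = 0.0134). The largest was clec-3, at 1.13 without food and -3.71 with it (interaction 4.84 ± 1.13, adjusted p = 0.0419). Its 3 unfed high-salt libraries spread over 7.25, 0.275 and 5.26 CPM.

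The 2 negative ones took different forms. For clec-7 the fall with salt was deeper without food (-4.52) than with it (-1.99), an interaction of -2.53 ± 0.53 (adjusted p = 0.0277). For clec-75 salt gave 0.16 without food and 2.50 with it (interaction -2.34 ± 0.52, adjusted p = 0.0332). Its 8.29, 4.95 and 4.79 CPM in unfed high-salt larvae and 5.74, 6.73 and 3.49 CPM in unfed low-salt larvae were all above the 1.08 to 1.48 CPM of fed low-salt larvae. These calls were unsteady, over all genes as well as over the members. The count was 0 without unfed low-salt A, where 0.343% of all genes passed, 19 without unfed low-salt C, where 4.65% did, and 18 without unfed high-salt A, where 5.26% did. It was 1 without unfed low-salt B or without fed low-salt B or C, and it was 2 without fed low-salt A or fed high-salt B, 3 without fed high-salt A and 4 without fed high-salt C, with 0.316% to 0.896% of all genes in these 7 fits.

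Members with a reported role in defence against bacteria were followed as a list of 16, of which 15 are among the 146. With salt in fed larvae 10 of the 15 fell and none rose, beside a fall in 35.6% of the 146 members and 22.1% of all genes. In unfed larvae 7 fell and none rose, beside a fall in 21.2% of members and 11.2% of all genes. Of these 7 calls, that of clec-49 was lost in 1 of the 12 fits without 1 library (adjusted p = 0.05004). Those of clec-61 and clec-71 were lost in 3 each, with adjusted p up to 0.117 and 0.229. Both were also lost under upper-quartile scaling (adjusted p = 0.0659 and 0.0504). Lack of food at low salt raised clec-7 and clec-61 and lowered clec-85 (adjusted p = 0.0147, and 0.106 without unfed low-salt B), and at high salt it moved none. Of the same 15, 10 were lower and none higher in fed high-salt larvae than in unfed low-salt larvae. Beside this, 28.1% of members and 14.5% of all genes were lower. The calls of clec-61, clec-67, clec-82, clec-85 and clec-86 in this comparison were lost in 1 to 8 of the 12 fits without 1 library. For clec-67 the adjusted p rose to 0.399. The gene clec-85, a known target of the PMK-1 pathway, had 13.2, 10.4 and 11 CPM in unfed high-salt larvae and 13.4, 14.4 and 12.4 CPM in fed high-salt larvae, against 24.0, 26.7 and 58.4 CPM in unfed low-salt larvae and 96.2, 75.6 and 120 CPM in fed low-salt larvae. It thus fell by 2.86 ± 0.33 with salt in fed and by 1.66 ± 0.32 in unfed larvae on the log2 scale. The gene clec-67, which the annotation gives as intestinal, raised by infection and under ELT-2 control, had 4.57, 7.09 and 6.09 CPM in fed high-salt larvae, against 32.7, 25.6 and 47.3 CPM in fed low-salt larvae (log2 fold change -2.58 ± 0.54, adjusted p = 0.00185). Without food its levels of 11.3, 3.07 and 5.49 CPM in unfed high-salt larvae and 13.7, 6.47 and 31.5 CPM in unfed low-salt larvae overlapped (-1.42 ± 0.52, adjusted p = 0.0759).

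Others of this list with a passing fall in fed high-salt against fed low-salt larvae were clec-49 (-4.20), which the annotation gives as a predicted secreted protein, clec-52 (-2.19), clec-60 (-2.95), clec-71 (-3.09) and clec-86 (-2.64, log2 fold changes). Also among them were clec-4 (-4.61) and clec-41 (-3.11). The gene clec-17 stood at 19.5, 48.4 and 46.4 CPM in unfed high-salt, 43.3, 66.4 and 34.7 CPM in fed high-salt, 25.4, 26.7 and 30.6 CPM in unfed low-salt and 38.5, 24.0 and 46.7 CPM in fed low-salt larvae, and passed no test. Neither did clec-42, with a log2 fold change of -1.24 with salt in fed larvae, nor clec-70, with 0.06. The gene clec-82 passed in the comparison of fed high-salt with unfed low-salt larvae alone (-2.74, adjusted p = 0.022, and 0.0508 under upper-quartile scaling).

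Known immune regulators were followed as a separate list. Of 37 immune signalling and transcription regulators, 8 were higher and 3 lower in fed high-salt than in fed low-salt larvae, where 16.1% of all genes were higher and 22.1% lower. In unfed high-salt larvae against unfed low-salt larvae 5 were higher and 4 lower, where 6.72% and 11.2% of all genes were. With food, salt raised the p38 pathway's TIR-1 adaptor gene tir-1 by 1.23, the kinase genes nsy-1 by 1.38 and sek-1 by 0.92, and the intestinal GATA factor gene elt-2 by 0.91 on the log2 scale. The other rises with food were nhr-25 (1.23), mpk-1 (1.17), sma-9 (1.12) and daf-2 (1.11). The zinc finger transcription factor gene pqm-1 fell by 1.65, and the TGF-beta receptor gene sma-6 fell by 1.04. The other fall was in sma-3 (-1.05). The gene of the p38 kinase itself, pmk-1, did not pass with food (-0.42, adjusted p = 0.153), nor did elt-7 (-0.93, adjusted p = 0.0659). Without food nsy-1 and sek-1 did not pass (adjusted p = 0.265 and 0.445), and elt-7 fell (-1.38, adjusted p = 0.0185). No regulator passed the test for lack of food at either salt level.

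Secreted effectors outside the family, such as lysozymes and saposin-like proteins, were mostly lower at high salt too. Of 55 tested, 37 were lower and 3 higher with salt in fed larvae, where 22.1% of all genes were lower and 16.1% higher. In unfed larvae 29 were lower and 3 higher, where 11.2% and 6.72% of all genes were. The effectors' summed level was 1135 to 1543 CPM in unfed high-salt, 637 to 1247 CPM in fed high-salt, 3815 to 6323 CPM in unfed low-salt and 5236 to 6638 CPM in fed low-salt larvae. Intestine markers moved too: of 13 tested, 10 were lower and 1 higher with salt in fed larvae, and the same counts were found in unfed larvae. Their sum was 1769 to 2949 CPM in unfed high-salt, 2131 to 2503 CPM in fed high-salt, 4191 to 8494 CPM in unfed low-salt and 7654 to 8608 CPM in fed low-salt larvae, with none of the 13 at 0. The marker that rose was elt-2, also in the regulator list. Pharynx markers went the other way, with 5 of 5 higher with salt in fed larvae and 2 of 5 in unfed larvae. Their sum was 2143 to 6368 CPM in unfed high-salt, 5459 to 8183 CPM in fed high-salt, 1723 to 2804 CPM in unfed low-salt and 1059 to 1956 CPM in fed low-salt larvae, with none of the 5 at 0. Of 8 epidermis markers, 4 were lower and 2 higher with salt in each food state. Of 5 germline markers, 3 were lower and 0 higher with salt in fed larvae, and 1 was lower and 0 higher in unfed larvae. The germline sum was 243 to 310 CPM in fed low-salt larvae. It was 33.6 to 42.4 CPM in unfed high-salt, 44.3 to 51.0 CPM in fed high-salt and 41.9 to 93.1 CPM in unfed low-salt larvae. The all-gene shares given beside the effectors apply to these marker counts too. The part of these cell type markers in the changes of the clec genes was not tested.

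Genes of the family often lie side by side. With at most 2 other protein-coding genes between neighbours, a limit chosen after the values were seen, 88 members lay next to another clec gene, and 22 groups of neighbours held at least 2 members. In 14 of these groups at least 2 members reached 5 CPM, and in 8 of the 14 all such members had their highest mean in the same group of larvae. No like count was made for other neighbouring genes or for members that lie apart. Of all members at this level, 44.6% were highest in fed low-salt and 33.8% in unfed low-salt larvae. The count of 8 therefore does not show that neighbours change together. The genes clec-62 to clec-66 were all highest in fed low-salt larvae, as were clec-186 with clec-187, clec-51 with clec-52, clec-41 with clec-225 and clec-49 with clec-50. The pairs clec-13 with clec-15 and clec-60 with clec-61 were highest in unfed low-salt larvae. The other 6 groups were split. In the row from clec-67 to clec-79 on chromosome IV, clec-67, clec-71 and clec-72 were highest in fed low-salt larvae, clec-76 in unfed low-salt larvae and clec-75 in fed high-salt larvae. How the authors' counting treated reads that match several copies is not stated, so values of near-identical neighbours are uncertain.

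Of the 146 members, 70 passed at least 1 of the 6 tests (47.9%, against 44.9% of all genes) and 76 passed none. Most of the 76 were low, but 14 reached 5 CPM in some group. Steady examples, chosen after their values were seen, were clec-8 and clec-149. The gene clec-149, given in the annotation as an inhibitor of germline apoptosis, had 8.52, 5.96 and 11.15 CPM in unfed high-salt, 6.5, 5.21 and 8.12 CPM in fed high-salt, 9.28, 11.5 and 7.92 CPM in unfed low-salt and 10.2, 9.74 and 8.11 CPM in fed low-salt larvae. For clec-8 the log2 fold change with salt was -0.11 in fed and -0.28 in unfed larvae.

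The authors' deposited tables, made with edgeR's exact test, give 19 members higher and 52 lower with salt in fed larvae, where 20.98% and 24.2% of all genes listed there were higher and lower. In unfed larvae the authors' deposited tables give 7 higher and 36 lower (9.46% and 13.7% of all genes). For lack of food the authors' deposited tables give 17 higher and 15 lower at low salt (7.40% and 6.43% of all genes) and 0 at high salt (0.293% and 0.237%). All 64, 36 and 17 members that passed here in those 3 comparisons were also past an adjusted p of 0.05 in the authors' deposited tables.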

How the data were processed

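Whole-larva mRNA libraries were sequenced, 12 in all. Bowtie 1.1.2 and HTSeq appear in the submitters' processing notes, and the deposited values are whole, unnormalized read counts by gene. No source used here names the genome build of the counts or the handling of reads with several matches. A workbook the authors deposited holds their own log2 fold changes and p-values, from edgeR's exact test after a minimum of 1 CPM in at least 3 libraries, as its notes sheet says.

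Counts were refitted with edgeR 4.0.16 in R 4.3.3: genes were kept by filterByExpr (minimum count 10, minimum total 15), scaled by TMM, and tested with the robust quasi-likelihood F-test in 1 model of the 12 libraries with 1 coefficient per group. Adjusted p-values are Benjamini-Hochberg over 18028 genes. CPM is per 1000000 reads of the TMM-scaled library. The standard error is the absolute log2 fold change divided by the square root of F. A self-test ran on simulated counts for salt with food. It recovered 8 of 100 genes changed 2-fold and 54 of 100 changed 4-fold, with 1 false call. No other gene among the 18028 was changed in the simulation, whereas 38.3% of all genes passed for salt with food in the data. With so few changed genes the Benjamini-Hochberg adjustment is stricter, so these shares do not measure recovery in the data. A gene that did not pass may still have changed. Alternatives were RLE and upper-quartile factors, no filter, DESeq2 1.42.0, a replicate block, ribosomal RNA genes left out, and libraries left out. Gene positions, neighbours and coding lengths come from Ensembl release 115 of WBcel235, other names from RefSeq.

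The members and gene lists were chosen with earlier results of these data known. Genes named with values are the 4 highest and 4 lowest passing members with a mean of at least 5 CPM per comparison, the 5 with the highest CPM per kb (1000 bases) in each group, the reported defence genes and the 4 smallest interaction p-values; others are said to be chosen after their values were seen, or given in passing as counts or list members. The p-values rest on the spread between replicates within groups, estimated jointly over the 4 groups and with information shared between genes.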

Additional observations from a re-analysis of the deposited data

Results flagged for a closer look

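The salt effect differed between unfed and fed larvae by edgeR's interaction test for 7 clec genes. The difference of log2 fold changes, without food minus with food, was 4.84 for clec-3, 4.20 for clec-57, 3.15 for clec-265, 2.56 for clec-186 and 2.45 for clec-187. It was -2.53 for clec-7 and -2.34 for clec-75. Each of the 7 calls was lost in at least 1 of the 12 fits that left out a library.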

How the results depend on the processing

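Of 95 named results with a call, 64 held in every alternative run, and none turned its direction. With unfed high-salt A and fed high-salt C left out together, 62 members passed for salt without food, 41 for lack of food at low salt and 15 for the interaction (25.3%, 17.7% and 3.45% of all genes), and the members with their highest mean in unfed and fed high-salt larvae numbered 10 and 19. Without the count filter 29 members passed for lack of food at low salt, 3 at high salt and 24 for the interaction (4.98%, 0.619% and 3.04% of 33467 genes). DESeq2 gave 32 for lack of food at low salt and 14 for the interaction (14.7% and 6.79% of all genes). Leaving out 1 library at a time gave 55 to 77 members for salt with food, 32 to 60 for salt without food, 4 to 37 for lack of food at low salt, 0 to 1 at high salt, 34 to 57 for osmotic stress against starvation and 0 to 19 for the interaction. Over all genes these fits called 24.2% to 47.3%, 11.14% to 22.9%, 1.09% to 16.3%, 0% to 0.162%, 12.6% to 28.3% and 0.316% to 5.26% in the same order. The causes were not tested. Same-letter libraries were not treated as paired: 7 of 18 same-letter pairs had a correlation over 0.1, with a range of -0.09 to 0.35. With the letter as a replicate block, 64, 41, 25, 0 and 49 members passed in the 5 comparisons in the order above, and 13 for the interaction, where the shares of all genes were 40.8%, 18.9%, 9.28%, 0.166%, 22.7% and 3.24%. Upper-quartile scaling ended 9 named calls, among them clec-57 and clec-3 in the interaction (adjusted p = 0.0517 and 0.0567). It put the median log2 fold change over all genes at 0.55 and 0.24 for salt with and without food, 0.36 and 0.10 for lack of food at low and high salt, 0.12 for osmotic stress against starvation and -0.30 for the interaction. The 72 members under 5 CPM are too shallow for firm levels. Reads from stretches where genes overlap and reads of near-identical copies cannot be parted.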
